A study of Mus musculus with 18 samples.

Results

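The genes described here are the basal keratins Krt5, Krt14, Krt15 and Krt17 with the transcription factor Trp63, the luminal keratins Krt8, Krt18 and Krt19, and Krt4 and Krt7. They were picked by symbol as markers of basal and luminal cells, with earlier results of these data known, and all 10 were found among the 55469 gene identifiers of the tables. RNA was sequenced from prostate, ventral and lateral lobes together, of male TRAMP mice, in which a probasin promoter drives SV40 T antigens in prostate epithelium. Every animal was heterozygous for the TRAMP transgene, on a strain that the labels write as C56NL/6N, so the controls were tumour-prone as well. WT-TRAMP mice had both wild-type copies of Elac2, the gene for the endonuclease that trims the 3′ ends of precursor tRNAs. KO-TRAMP mice had exon 8 of Elac2 removed by a probasin-driven Cre, which acts in prostate epithelium and leaves other cells of the lobe unmodified, and A537T-TRAMP mice were homozygous for the Ala-to-Thr substitution in the whole body. Mice were taken at 10 and 30 weeks, with 3 libraries in each of the 6 groups. The comparisons ask how each Elac2 line differed from WT-TRAMP of the same age.

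Keratins are obligate heteropolymers, in which a type II chain (Krt4, Krt5, Krt7, Krt8) pairs with a type I chain (Krt14, Krt15, Krt17, Krt18, Krt19) to build the intermediate filaments of epithelial cells. In the prostate the usual reading is that Krt5 and Krt14, with the p63 protein made from Trp63, mark the basal cells that lie on the basement membrane, while Krt8 and Krt18 mark the secretory luminal cells. Krt15 is found in basal cells, Krt17 is a keratin of stressed and basal epithelium, Krt19 is shared by several simple epithelia, Krt4 is found in a subset of luminal cells near the urethra, and Krt7 is a simple keratin that is abundant in urothelium and other ducts. The 10 genes lie in 3 places of the mouse genome (GRCm38). Krt5, Krt4, Krt7, Krt8 and Krt18 lie on chromosome 15, where Krt8 (102004482 to 101996698, read on the minus strand) and Krt18 (102028180 to 102032027, plus strand) are neighbours transcribed away from each other. Krt14, Krt15, Krt17 and Krt19 lie on chromosome 11 and Trp63 lies on chromosome 16.

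The promoters of Krt5, Krt7 and Krt8, the type II keratins that were higher in libraries 17 and 18 (KO-TRAMP, 30 weeks) than in any WT-TRAMP library of that age, are shown with that of Krt18, the partner of Krt8, whose values overlapped WT-TRAMP there. RefSeq promoters (GRCm38.p6) were at hand for 5 of the 10 genes. The stretch that RefSeq gives for Krt14 lay inside the gene model used here and is not shown. Most of the Krt8 stretch and part of the Krt18 stretch also lie inside the gene models used here. Each run is the 150 bases before the transcription start that RefSeq gives, 5′ to 3′ in the direction of the gene. Capitals mark a match to a p53 family half-site, the element of 10 bases shared by p53, p63 and p73, or to the GC box GGGCGG, each searched on both strands.
Krt5, chr15:101712906-101713055, minus strand: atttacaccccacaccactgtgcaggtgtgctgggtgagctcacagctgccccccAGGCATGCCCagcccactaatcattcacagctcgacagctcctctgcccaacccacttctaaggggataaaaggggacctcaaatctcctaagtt
Krt7, chr15:101412253-101412402, plus strand: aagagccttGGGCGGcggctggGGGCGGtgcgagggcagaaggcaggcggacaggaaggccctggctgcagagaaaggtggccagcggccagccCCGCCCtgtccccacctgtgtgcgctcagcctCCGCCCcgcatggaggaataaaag
Krt8, chr15:102004343-102004492, minus strand: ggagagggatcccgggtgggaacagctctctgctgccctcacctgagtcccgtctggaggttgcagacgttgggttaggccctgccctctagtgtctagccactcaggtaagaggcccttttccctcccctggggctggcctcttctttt
Krt18, chr15:102028066-102028215, plus strand: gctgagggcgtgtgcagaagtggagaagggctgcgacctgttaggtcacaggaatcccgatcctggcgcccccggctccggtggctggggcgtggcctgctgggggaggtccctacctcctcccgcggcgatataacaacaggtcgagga
The half-site occurred once in these stretches, at -95 from the start of Krt5, where it reads on both strands. Over the same 150 bases, 4.01% of all 32851 RefSeq promoters hold such a half-site. The Krt7 stretch holds 4 matches to GGGCGG, a motif found in 28.6% of promoters, and TATAAA, found in 7.57%, was in none of the stretches shown. These are matches of letters and were not tested as binding sites.

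The libraries, numbered 1 to 18 as in the column headers, held 9380174 to 14830104 reads each. Reads here are whole counts derived from the normalized counts, not raw sequenced reads. Elac2 itself was at 301.2, 262.5 and 254.4 normalized counts in KO-TRAMP libraries 7 to 9 and at 359.4, 288.7 and 307.2 in WT-TRAMP libraries 1 to 3 at 10 weeks. At 30 weeks KO-TRAMP libraries 16 to 18 had 249.0, 267.5 and 250.6 and WT-TRAMP libraries 10 to 12 had 250.7, 319.6 and 310.0. The groups overlapped at both ages (log2 fold change -0.22, limma adjusted p 0.808, and -0.19, adjusted p 0.522), and a whole-gene count does not show whether exon 8 was lost. It was also at 245.4 to 306.0 in A537T-TRAMP at 10 weeks and at 258.1 to 292.1 at 30 weeks.

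Some libraries at 30 weeks lay between the others of their group in most genes that differed at least 4-fold between those. Library 18 lay between libraries 16 and 17, the other KO-TRAMP libraries at 30 weeks, in 98.4% of the 1281 genes that differed at least 4-fold between them. Its median position was 0.39 parts of library 16 to the rest of library 17, with quartiles of 0.34 and 0.45. Library 12 lay between WT-TRAMP libraries 10 and 11 in 96.5% of 458 such genes, with a median of 0.44 parts of library 10 (quartiles 0.37 and 0.51). Library 15 lay between A537T-TRAMP libraries 13 and 14 in 89.2% of 185 genes, with a wider spread of positions (quartiles 0.41 and 0.74). In the WT-TRAMP and KO-TRAMP groups at 10 weeks this share ran from 32.7% to 78.6% as each library was set between the others, and in A537T-TRAMP at 10 weeks it reached 81.1% for library 6. Whether libraries 12, 15 and 18 share RNA with the others of their group was not tested. The tests below treat all 3 libraries of a group as separate, so the fits of the 10 genes at 30 weeks are also given without libraries 12 and 18, or 12 and 15. Single values and ratios are given per library.

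In WT-TRAMP prostate the luminal keratins were far above the basal ones. As RPM (reads scaled to a common library total) and per kilobase of coding sequence, Krt18 was at 475 ± 55.6 (SD, n = 3), Krt19 at 424 ± 11.9 and Krt8 at 262 ± 16.9 at 10 weeks. On this coding scale Krt18 and Krt19 differed by less than the SD of Krt18. Krt4 followed at 30.9 ± 24.8, Krt15 at 22.9 ± 11.9 and Krt7 at 13.2 ± 3.3 on the same scale, and these neighbours did not differ beyond the SD of Krt4. Krt5 at 8.3 ± 3.2, Trp63 at 4.1 ± 0.9, Krt14 at 3.4 ± 1.9 and Krt17 at 2.4 ± 1.0 were lowest, and neighbours in this order again overlapped. The order depends on the length used. Per kilobase of exon Krt18 was at 420 ± 49.1 and Krt19 at 276 ± 7.8. On that exon scale Krt7 (2.6 ± 0.6) fell below Krt5 (6.6 ± 2.6), and Trp63 (1.0 ± 0.2) below Krt17 (2.0 ± 0.8). Krt5 and Krt14 are usually a pair, yet Krt14 had only 11 to 139 reads over all libraries, against 21 to 1186 for Krt5 and 3887 to 9014 for Krt18, so its values are the least precise with those of Krt17 (17 to 89 reads). At 30 weeks the WT-TRAMP order per kilobase of coding sequence was the same at the top. Krt18 was at 413 ± 48.4, Krt19 at 383 ± 90.4, Krt8 at 199 ± 22.0 and Krt4 at 59.3 ± 19.8. Krt7 (19.1 ± 2.6) stood above Krt15 (10.7 ± 3.2) on that scale. Per kilobase of exon Krt7 was below Krt15, at 3.7 ± 0.5 against 8.3 ± 2.5. The defining markers of basal and luminal prostate epithelium were thus all present in every library.

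**Figure D1:**
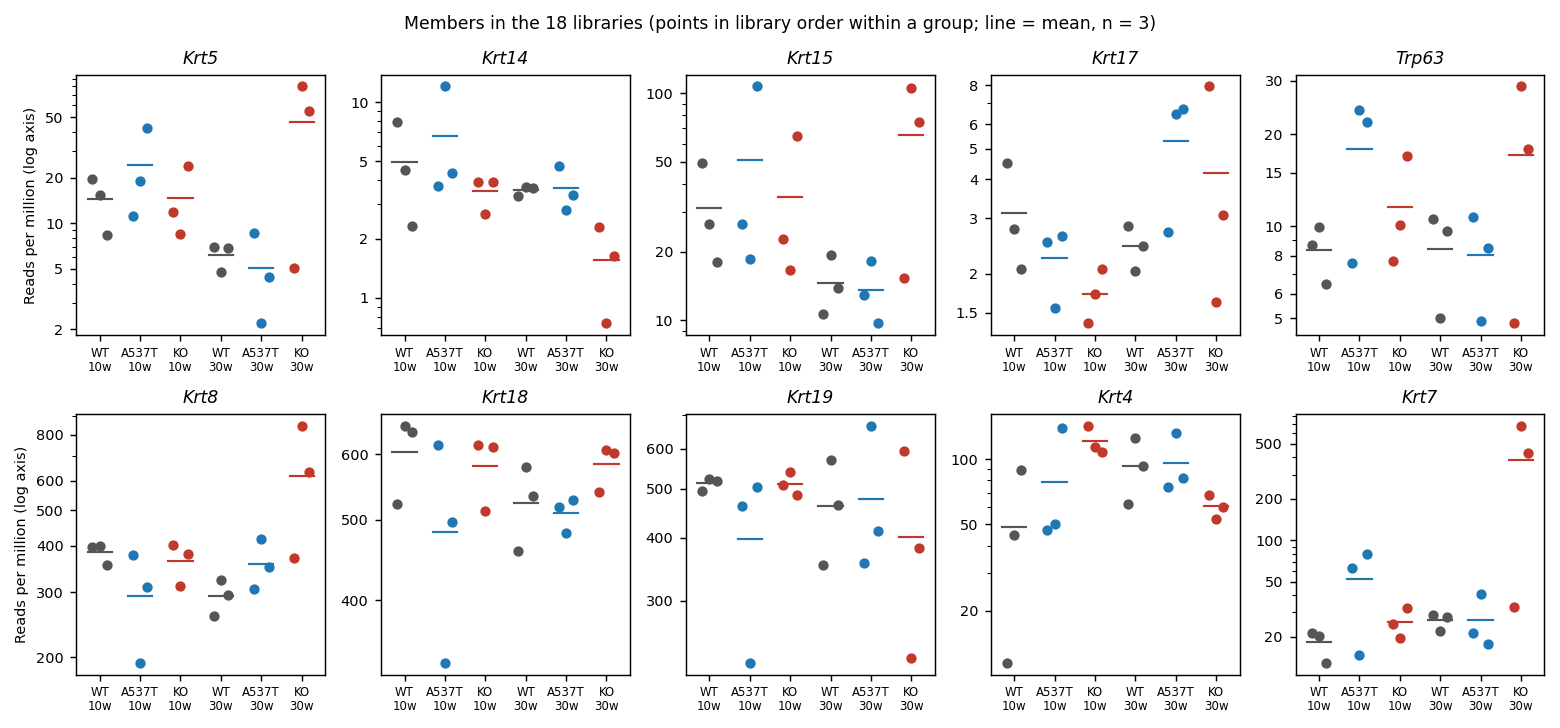
RPM on a log axis for each of the 10 genes in the 6 groups, with 1 point a library in library order and a line at the group mean (n = 3); wild type is read from the KO-TRAMP tables. In the KO-TRAMP group at 30 weeks libraries 17 and 18, to the right of library 16, stand far above it for Krt5, Krt15, Trp63, Krt8 and Krt7, and below it for Krt14.

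In KO-TRAMP at 30 weeks the libraries of the group differed widely in basal keratins. Krt5 was at 58.6, 864.4 and 601.5 normalized counts in libraries 16, 17 and 18, against 79.4, 55.7 and 79.8 in WT-TRAMP libraries 10 to 12. Libraries 17 and 18 were thus high and library 16 lay within the WT-TRAMP range (log2 fold change 2.13, SE 0.99, limma adjusted p 0.391). In a bulk sample a larger share of basal-type cells and more of this RNA per cell cannot be told apart. Krt15, a further basal keratin, had the same order, with 178.0, 1140 and 815.6 against 122.0, 227.4 and 160.7 (log2 fold change 1.73, SE 0.70, adjusted p 0.368). Trp63, whose protein directs the basal programme, was at 55.6, 310.5 and 195.3 against 120.9, 58.5 and 111.7 (log2 fold change 0.69, SE 0.66, adjusted p 0.601). Library 16 was the lowest of all 6 libraries for Trp63 and library 17 the highest.

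Krt14, the usual type I partner of Krt5, went the other way in the same libraries. It was at 26.8, 8.0 and 17.8 normalized counts in libraries 16 to 18 and at 38.0, 43.2 and 42.2 in WT-TRAMP. All 3 KO-TRAMP libraries lay below all 3 WT-TRAMP libraries (log2 fold change -1.33, SE 0.47, adjusted p 0.355, exact permutation p 0.1, the smallest that 3 against 3 allows). Of the 31-base words of Krt14, 28.2% occur in another gene, most of them in Krt16 (17.6%), so part of its count can depend on how reads were shared out. Krt17, a type I keratin induced in stressed epithelium, was at 91.6 in library 16 and at 17.5 and 33.4 in libraries 17 and 18, against 32.5, 23.99 and 28.5. Its high library was therefore the one in which Krt5 and Krt15 were at wild-type level (log2 fold change 0.42, SE 0.61, adjusted p 0.729).

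Among the luminal and simple keratins of the same comparison, Krt7 had the largest difference of the 10 genes. Krt7 was at 377.6, 7338 and 4653 normalized counts in libraries 16 to 18, against 325.6, 259.1 and 324.9 in WT-TRAMP. The ratio of the means was 13.6 and no KO-TRAMP library reached down to WT-TRAMP, although library 16 lay just above it (log2 fold change 2.96, SE 1.08, adjusted p 0.356, exact permutation p 0.1). Krt8, the main luminal type II keratin, was at 4282, 9142 and 6918 against 2946, 3788 and 3429. All 3 KO-TRAMP libraries lay above WT-TRAMP (log2 fold change 0.94, SE 0.28, adjusted p 0.327, exact permutation p 0.1). Its partner Krt18 was at 6256, 6570 and 6553 against 5226, 6801 and 6208, within the WT-TRAMP range in every library (log2 fold change 0.10, SE 0.12, adjusted p 0.696). Of the Krt8 words, 32.3% occur elsewhere, nearly all in the pseudogene Krt8-ps. Krt19, a type I keratin of simple epithelia, was at 6857, 2502 and 4152 against 4024, 6705 and 5391, and Krt4 at 793.3, 570.7 and 654.8 against 712.8, 1466 and 1076. Both were lowest in library 17 and overlapped WT-TRAMP (adjusted p 0.657 and 0.378).

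**Figure D2:**
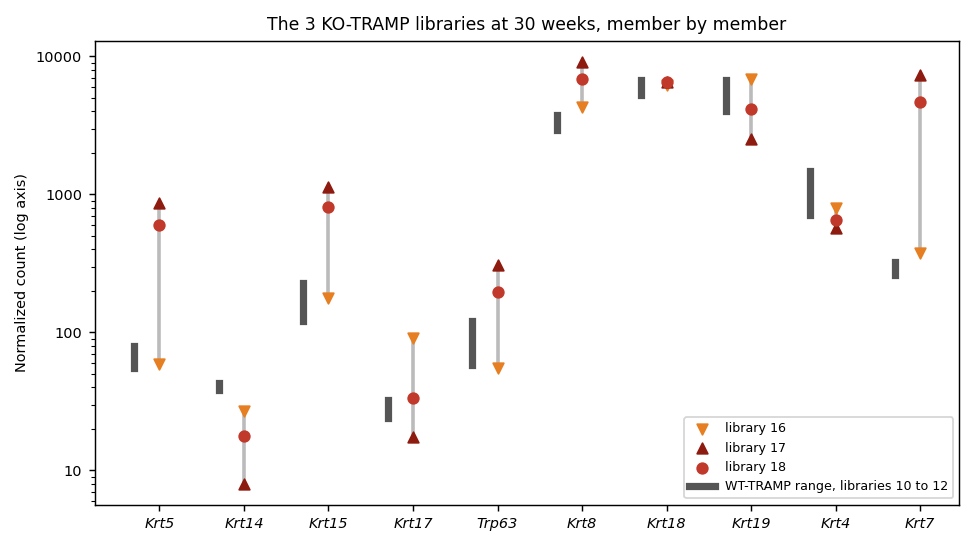
Normalized count on a log axis of each of the 10 genes in KO-TRAMP libraries 16, 17 and 18 at 30 weeks, with a dark bar for the range of WT-TRAMP libraries 10 to 12. Library 18 lies between libraries 16 and 17 for all 10 genes, and library 16 is close to or within the WT-TRAMP range for Krt5, Krt15, Trp63, Krt18 and Krt7.

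None of the 10 genes was past the adjusted threshold of 0.05 in the 30-week KO-TRAMP comparison, where 36 of 16900 genes (0.213%) did. With limma 4 of the 10 had an unadjusted p under 0.05 (13.5% of all genes tested), namely Krt14, Krt15, Krt8 and Krt7, and 3 did not overlap between the groups (20.2% of all genes). The median log2 fold change over the 10 was 0.56, against 0.01 over all genes tested. The calls turned on library 16: without it 5 of the 10 passed, at a background of 18.1% of 16950 genes. These were Krt7 (log2 fold change 4.27, adjusted p 0.00411), Krt5 (3.33, 0.00685), Krt15 (2.54, 0.0106), Krt8 (1.24, 0.0146) and Krt14 (-1.69, 0.0463). That fit holds libraries 17 and 18 as its only KO-TRAMP samples, and library 18 lay between libraries 16 and 17 for all 10 genes. DESeq2 on the recovered reads, which keeps library 16, called Krt5, Krt15, Krt8 and Krt7 (4.76% of all genes), and edgeR called none of the 10, with 6 at an unadjusted p under 0.05 (15.6% of all genes with edgeR). Without libraries 12 and 18, 0 of 16889 genes passed with limma and 343 had an unadjusted p under 0.05, none of them one of the 10; Krt7 was then at a log2 fold change of 2.52 (SE 1.48), Krt5 at 1.75 (SE 1.36) and Krt8 at 0.91 (SE 0.43). In the same fit Krt15 was at 1.43 (SE 0.99), Krt14 at -1.39 (SE 0.78), Trp63 at 0.64 (SE 0.96), Krt17 at 0.52 (SE 0.93), Krt4 at -0.60 (SE 0.43), Krt19 at -0.33 (SE 0.59) and Krt18 at 0.11 (SE 0.23). Without library 17 the values were 2.13 for Krt7, 1.40 for Krt5, 1.21 for Krt15 and 0.17 for Trp63, and without library 18 they were 2.46, 1.66, 1.45 and 0.51.

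Ratios within a library, which need no scaling between libraries, were taken for 6 pairs of the genes. Krt5 to Krt14 stood at 2.19, 108 and 33.9 for libraries 16 to 18, while WT-TRAMP had 2.09, 1.29 and 1.89. In libraries 17 and 18 this ratio rests on 11 and 17 reads of Krt14. All 3 KO-TRAMP ratios were above all 3 of WT-TRAMP, the first by a margin of less than the WT-TRAMP spread (exact permutation p 0.1). Krt8 to Krt18 was 0.684, 1.39 and 1.06 against 0.564, 0.557 and 0.552, so here library 16 also stood clear of WT-TRAMP (exact permutation p 0.1). Krt7 to Krt8 was 0.0882 in library 16, within the WT-TRAMP range of 0.0684 to 0.111, and 0.803 and 0.673 in libraries 17 and 18. Krt15 to Krt5 was 3.04, 1.32 and 1.36 against 1.54, 4.09 and 2.01, with overlapping groups (exact permutation p 0.5). Krt5 to Krt8 and Krt7 to Krt19 overlapped WT-TRAMP there as well (exact permutation p 0.4 and 0.3). At 10 weeks Krt7 to Krt8 lay above WT-TRAMP in each library of both lines, at 0.0620, 0.0623 and 0.0852 in KO-TRAMP against 0.0364 to 0.0532, and at 0.168, 0.0761 and 0.255 in A537T-TRAMP against 0.0373 to 0.0546 (log2 differences 0.58 and 1.65, exact permutation p 0.1 each). Krt7 to Krt19 did so in A537T-TRAMP at 10 weeks as well (log2 difference 1.63, exact permutation p 0.1). Both lines share the WT-TRAMP libraries. In A537T-TRAMP at 30 weeks Krt8 to Krt18 was 0.589, 0.866 and 0.666 against 0.570, 0.563 and 0.559, again above WT-TRAMP in each library (exact permutation p 0.1), while Krt5 to Krt14 (0.778 to 1.83) overlapped WT-TRAMP. Across the 6 ratios and 4 comparisons, 24 tests were made and none can go below 0.1. Ratios of other gene pairs were not taken, so a lack of overlap does not set these 6 pairs apart.

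**Figure D3:**
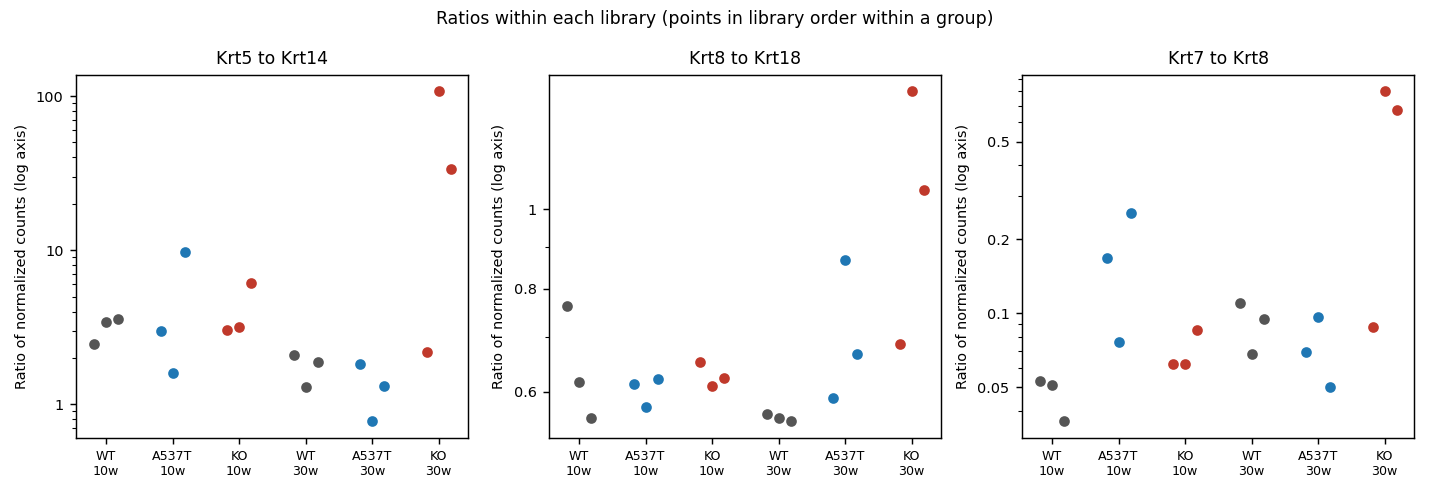
Ratios of normalized counts within each library on a log axis for Krt5 to Krt14, Krt8 to Krt18 and Krt7 to Krt8 in the 6 groups, with 1 point a library. Libraries 17 and 18 have Krt5 to Krt14 ratios of 108 and 33.9, whereas the other 16 libraries lie between 0.778 and 9.73.

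Markers of other cells moved with Krt5 and Krt7 in libraries 17 and 18. The urothelium list of 10 genes summed to 1992, 5615 and 3868 normalized counts in libraries 16 to 18 and to 2226 to 2636 in WT-TRAMP. Upk3a, a plaque protein that defines umbrella cells of the urothelium, was at 0, 941.0 and 494.0 and at 0 in all 3 WT-TRAMP libraries, and Krt20, a keratin of the same cells, was at 0, 83.8 and 51.2 against 9.0, 0 and 3.4. Snx31, which takes part in uroplakin traffic, was at 5.1, 580.9 and 327.9 against 0, 1.0 and 2.3. The list also holds genes read where Upk3a was at 0. In WT-TRAMP at 10 weeks, in the comparison with A537T-TRAMP, Upk1b was at 1054 to 1432 and Upk3a at 0. Whether the list sum stands for urothelium in WT-TRAMP was not tested. The neuroendocrine list of 12 genes summed to 335.4 in library 16 and to 21222 and 13309 in libraries 17 and 18, against 377.2 to 3918 in WT-TRAMP. Foxa2, a transcription factor of neuroendocrine prostate cells, was at 0, 1130 and 685.1 against 6.7, 1.0 and 3.4, and Chga, the granule protein chromogranin A, at 1.0, 6426 and 4005 against 230.5, 0 and 118.5. Ivl, the cornified envelope protein involucrin, was at 0, 493.4 and 336.3 against 0, 5.8 and 1.1. Of the 5 genes tested on its squamous and skin list, 3 were above 0 and 2 below, with 0 at an unadjusted p under 0.05. The summed luminal list (39730, 19073 and 26787 against 35228 to 47338) was lowest in library 17. No gene of the urothelium, neuroendocrine or luminal lists passed in this comparison, and 8 of 16 luminal genes were lower at an unadjusted p under 0.05. The part of these cells in the keratin values was not tested. Seminal vesicles, bladder and urethra were taken away during dissection, per the protocol.

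**Figure D4:**
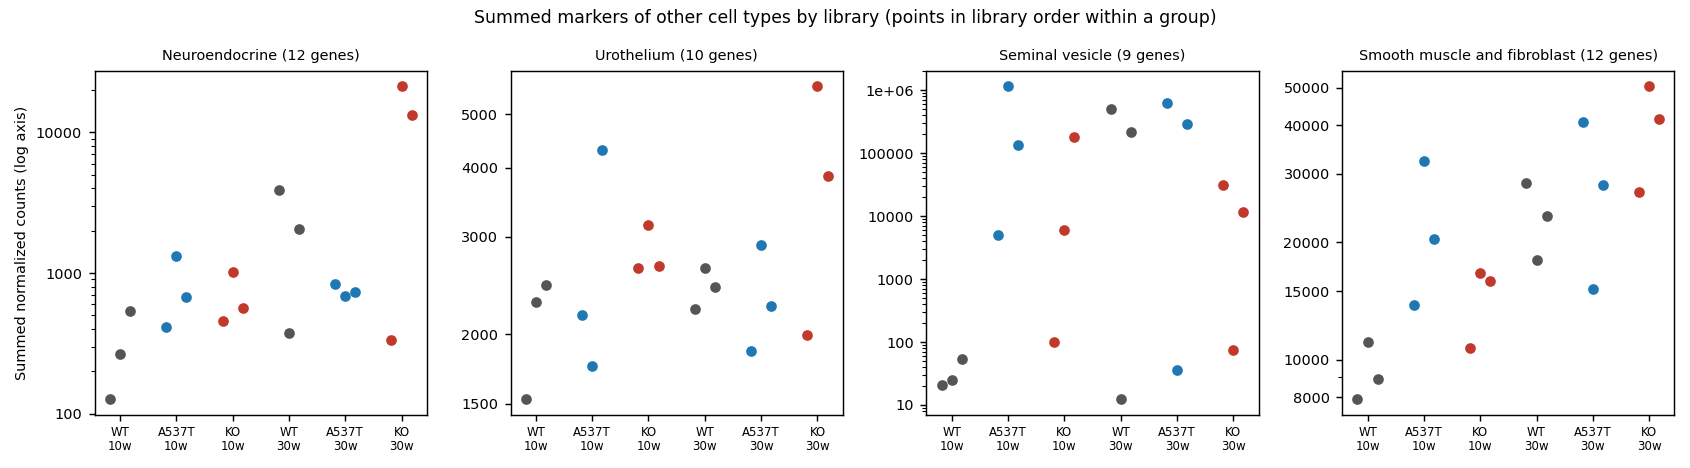
Summed normalized counts of 4 marker lists on a log axis in the 6 groups, with 1 point a library and wild type from the KO-TRAMP tables. The neuroendocrine sum is highest in libraries 17 and 18, the urothelium sum is highest in library 17 (5615) and library 6 (4300), while the seminal vesicle sum runs from 12.5 to 1156800 with wide spread inside most groups.

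In KO-TRAMP at 10 weeks Krt5, Krt15 and Trp63 overlapped WT-TRAMP, and Krt4 and Krt17 were the genes whose groups did not overlap. Krt4 was at 1572, 1289 and 1189 normalized counts in KO-TRAMP libraries 7 to 9 and at 132.0, 524.9 and 1052 in WT-TRAMP libraries 1 to 3. The lowest KO-TRAMP library was above the highest WT-TRAMP one, and WT-TRAMP library 1 was far below the others (log2 fold change 1.68, SE 0.63, adjusted p 0.719, exact permutation p 0.1). Without library 1 the log2 fold change of Krt4 was 0.85. Krt17 was at 15.3, 19.6 and 23.0 against 51.6, 32.5 and 24.2, below WT-TRAMP in each library (log2 fold change -0.82, SE 0.37, adjusted p 0.742). Trp63 was at 84.5, 114.6 and 187.4 against 99.7, 116.2 and 76.0, and Krt5 at 130.4, 97.0 and 265.4 against 224.7, 180.0 and 99.1. Library 9 was the highest for both and for Krt15 (720.1). Krt8, Krt18 and Krt19 had log2 fold changes of -0.14, -0.12 and -0.06 (SE 0.09 to 0.12), and scaling to epithelial genes gave 0.026, 0.053 and 0.11 while it moved the median of all genes from -0.01 to 0.16. The smooth muscle and fibroblast list was at 10726, 16644 and 15922 summed normalized counts against 7924 to 11066, with 12 of 12 genes above 0, 6 of them at an unadjusted p under 0.05, 0 past the threshold and a median log2 fold change of 0.71. Its part in the keratin values was not tested. None of the 10 passed, where 2 of 15451 genes (0.0129%) did; edgeR and DESeq2 also called 0 of the 10, and 1 had an unadjusted p under 0.05 with limma (6.64% of all genes), 1 with edgeR (6.91%) and 0 with DESeq2 (6.82%). Of the 10, 2 did not overlap (12.0% of all genes).

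In A537T-TRAMP at 10 weeks Krt7, Krt4 and Trp63 had the largest log2 fold changes of the 10 genes. Krt7 was at 651.9, 187.9 and 856.5 normalized counts in libraries 4 to 6 against 224.9, 222.2 and 140.4 (log2 fold change 1.30, SE 0.54, adjusted p 0.600). Trp63 was at 78.1, 307.3 and 238.5 against 89.97, 104.8 and 67.7 (log2 fold change 1.05, SE 0.49, adjusted p 0.600). Krt7 was thus high in libraries 4 and 6 and Trp63 in libraries 5 and 6. Krt4 was at 487.5, 643.2 and 1502 against 118.9, 472.1 and 939.3, highest in library 6 and with overlapping groups (log2 fold change 1.05, SE 0.75, adjusted p 0.641). Krt5 was at 114.8, 244.3 and 457.5 against 203.2, 163.5 and 88.9, Krt15 at 273.5, 238.7 and 1164 against 489.2, 270.6 and 181.8, and Krt14 at 38.3, 153.6 and 47.0 against 80.3, 46.1 and 24.2. The high library was library 6 for Krt5 and Krt15 and library 5 for Krt14. Leaving out library 6 turned Krt15 from 0.55 to -0.18 and leaving out library 5 turned Krt14 from 0.53 to -0.08. The luminal keratins were lowest in library 5, with Krt8 at 2469 against 3768 to 4251, Krt18 at 4296 against 5379 to 6864 and Krt19 at 2890 against 5074 to 5492.

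Libraries 4 to 6 all carried markers of other cells, with the highest sums in libraries 5 and 6. The seminal vesicle list of 9 secretory genes summed to 5025, 1156800 and 136455 normalized counts in libraries 4 to 6, against 19.3 to 49.5 in WT-TRAMP, and all 9 genes had an unadjusted p under 0.05 with none past the adjusted threshold. The smooth muscle and fibroblast list was at 13776, 32433 and 20416 against 7136 to 9938. Upk3a was at 167.4 in library 6, the library with the most Krt7, Krt5 and Krt15, and at 0 in the other 5 libraries of the table, and Gsdmc2, also on the urothelium list, was at 784.3 there against 4.8 to 24.4 in the rest. Krt7 was also high in library 4 (651.9), where Upk3a was at 0 and Gsdmc2 at 24.4. In KO-TRAMP at 10 weeks the seminal vesicle sum was 99.8, 5937 and 180184 in libraries 7 to 9, highest in the library with the most Krt5, Krt15 and Trp63. The part of these cells in the keratin values was not tested. None of the 10 genes passed in A537T-TRAMP at 10 weeks, where 1 of 15438 (0.00648%) did, 1 had an unadjusted p under 0.05 with limma (7.89% of all genes) and 2 with edgeR (8.83%) and with DESeq2 (10.3%), which also called 0 of the 10, and 0 did not overlap (13.4% of all genes).

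In A537T-TRAMP at 30 weeks the 10 genes lay closer to WT-TRAMP, with a median log2 fold change of 0.02. Krt5 was at 99.1, 25.04 and 48.8 normalized counts in libraries 13 to 15 against 76.9, 52.9 and 75.7, Trp63 at 123.7, 56.0 and 93.7 against 111.7, 53.8 and 102.4, and Krt7 at 245.0, 462.7 and 194.4 against 318.3, 251.1 and 315.8. The groups overlapped for all 10 genes. Krt17 was at 31.1, 73.9 and 73.8 against 31.6, 23.3 and 27.7, high in libraries 14 and 15 (log2 fold change 0.99, SE 0.38, adjusted p 0.684). Krt8 was at 3516, 4778 and 3877 against 2840, 3624 and 3281 (log2 fold change 0.32, SE 0.14, adjusted p 0.703). None of 16261 genes passed (0.0%) with limma or edgeR, whereas DESeq2 called 166, with 0 of the 10 among them. Of the 10, 1 had an unadjusted p under 0.05 (7.21% of all genes with limma) and 0 did not overlap (13.4% of all genes). Without libraries 12 and 15, Krt17 was at a log2 fold change of 0.80 (SE 0.55) and Krt8 at 0.35 (SE 0.23), and the other 8 genes lay between -0.34 (Krt5) and 0.25 (Krt7). The smooth muscle and fibroblast sum was 40696, 15175 and 28143 against 16897 to 26889 in WT-TRAMP, and its part was not tested. Upk3a and Foxa2 did not reach the minimum mean in this table, and the neuroendocrine sum was 685.7 to 838.9 against 345.3 to 3615 in WT-TRAMP.

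The change of each effect with age was tested over the 12 libraries of a line. For KO-TRAMP none of the 10 genes passed (0.0% of 16431 genes), and 2 had an unadjusted p under 0.05 (13.1% of all genes). These were Krt8, with a difference of log2 fold changes of 1.08 (SE 0.32, adjusted p 0.259), and Krt4, with -2.32 (SE 0.81, adjusted p 0.313), which was -1.49 without library 1. Krt7 (2.52, SE 1.17) and Krt5 (2.22, SE 1.15) had adjusted p-values of 0.389 and 0.422. Without library 16, 4 genes passed, namely Krt7 (3.84), Krt5 (3.42), Krt15 (2.58) and Krt8 (1.38), where 11.8% of all genes passed, and DESeq2 called Krt8 alone (1.138, adjusted p 0.0275) among 2.37% of all genes. With edgeR 0 of the 10 passed and 4 had an unadjusted p under 0.05 (13.9% of all genes). Without libraries 12 and 18 none passed, with Krt8 at 1.05 (SE 0.39) and Krt4 at -2.28 (SE 1.00). For A537T-TRAMP none passed either (0.0% of 15941 genes), and Krt17 (1.34, SE 0.54) and Krt8 (0.66, SE 0.24) had an unadjusted p under 0.05 (6.36% of all genes) and adjusted p-values of 0.721. With edgeR and DESeq2 0 of the 10 passed and 3 had an unadjusted p under 0.05 (7.61% and 8.96% of all genes). Without libraries 12 and 15, Krt17 was at 1.15 (SE 0.65) and Krt8 at 0.698 (SE 0.30). The 30-week and 10-week effects of a line rest on different libraries, but those of KO-TRAMP and A537T-TRAMP at 1 age share the WT-TRAMP libraries.

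Genes that work with keratins in basal cells were read from lists. The hemidesmosome and basal adhesion list holds 14 genes, of which 12 were tested in each comparison and none passed in any. In KO-TRAMP at 10 weeks all 12 were below 0, with a median log2 fold change of -0.09 and none at an unadjusted p under 0.05. In KO-TRAMP at 30 weeks its median log2 fold change was 0.14, against 0.01 over all genes, and 3 genes were higher at an unadjusted p under 0.05. The laminin chains Lama3 (200.6, 154.5 and 160.8 against 101.8, 83.5 and 100.3) and Lamb3 (97.7, 153.8 and 137.8 against 69.4, 68.1 and 62.7), which anchor epithelium to the basement membrane, had the smallest p there (log2 fold changes 0.84, SE 0.18, and 0.93, SE 0.23, adjusted p 0.235 and 0.281). All 3 KO-TRAMP libraries lay above WT-TRAMP for both, and library 16 was the highest for Lama3 and the lowest of the 3 for Lamb3. The list of 15 further basal genes had 14 tested, none past the threshold and a median log2 fold change of -0.01, with 6 genes above 0 and 8 below. Tns4, an adhesion adaptor, was at 47.3, 93.3 and 61.6 against 23.5, 24.95 and 20.5 (log2 fold change 1.46, SE 0.33, adjusted p 0.245), and Sfn, the epithelial 14-3-3 protein, at 115.2, 237.6 and 176.5 against 58.2, 90.2 and 88.9 (1.11, SE 0.33, adjusted p 0.327). On the lower side, Bcl2 and Bcl11b lay wholly below WT-TRAMP, Bcl2 at 231.5, 212.1 and 197.4 against 304.4, 251.4 and 300.9 (-0.42, SE 0.14, adjusted p 0.348). In A537T-TRAMP at 30 weeks Ngfr, a receptor of basal cells and nerve, was at 100.8, 113.3 and 19.9 against 11.6, 6.3 and 4.3 (2.99, SE 0.71, adjusted p 0.457). There 9 of the 14 genes were below 0 (median -0.07), and Tgfb2, a growth factor, was at 193.4, 206.3 and 197.4 against 446.8, 326.4 and 253.9 (-0.74, SE 0.20, adjusted p 0.569).

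Desmosome linkers and epithelial regulators that act with keratins, a list of 21 genes, had medians between -0.06 and 0.07 in the comparisons of A537T-TRAMP and of 0.03 in KO-TRAMP at 30 weeks, with none past the threshold. Klf4, a regulator of epithelial differentiation, was at 124.5, 141.4 and 134.7 against 89.5, 91.2 and 88.9 in KO-TRAMP at 30 weeks and at 129.4, 124.0 and 117.6 against 87.5, 87.9 and 85.3 in A537T-TRAMP (log2 fold changes 0.56 and 0.50, adjusted p 0.323 and 0.576). Both comparisons use the same WT-TRAMP libraries. Of the luminal list of 16 genes, Tgm4, the prostate transglutaminase of secreted fluid, was at 95.7, 26.2 and 41.8 in KO-TRAMP at 30 weeks against 1508, 632.4 and 1105 (log2 fold change -4.40, SE 0.53, adjusted p 0.055), with no overlap. The general epithelial list of 15 genes had a median of 0.00 in that comparison, and its summed level (31062, 24615 and 27361 against 23414 to 31686) stayed within the WT-TRAMP range. Of the 12 smooth muscle and fibroblast genes, the collagens Col1a1 (log2 fold change 1.87, adjusted p 0.042) and Col3a1 (2.71, adjusted p 0.040) and the mesenchymal filament Vim (1.36, adjusted p 0.042) rose in KO-TRAMP at 30 weeks, and these 3 were the only genes of all lists that passed in any of the 4 comparisons with limma. None of the 3 passed without libraries 12 and 18. Scaling to epithelial genes turned the 32 higher and 4 lower calls of that comparison into 0 higher and 2 lower ones, so these 3 calls were lost there as well.

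The tables list 45 keratins besides the 10, of which 12 were at 0 in every library and 6 reached a mean of 10 in any table. None of the 6 passed. Krt80, a type II keratin of differentiating epithelium, was at 40.1, 390.7 and 254.8 in libraries 16 to 18 against 23.5, 36.5 and 38.8 (log2 fold change 2.27, SE 0.84, adjusted p 0.359). It was high in the same libraries as Krt5 and Krt7. Krt23 was at 115.2, 70.7 and 103.4 against 134.3, 244.7 and 209.7 (log2 fold change -1.003, SE 0.30, adjusted p 0.327), below WT-TRAMP in each library. Krt6a, which shares 9.46% of the 31-base words of Krt5, was at 67.9, 0.7 and 37.6 against 6.7, 10.6 and 3.4, high in library 16 with Krt17. Krt78 was at 48.0, 150.3 and 133.0 in A537T-TRAMP at 10 weeks against 3.2, 11.5 and 69.7 (2.69, SE 0.99, adjusted p 0.600).

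On the log2 scale of RPM, Krt5 followed Krt15 (Pearson r 0.88) and Trp63 (0.85), but not Krt14 (-0.14) or Krt17 (-0.45). At 10 weeks Krt5 and Krt14 had r = 0.46 and at 30 weeks -0.78, over 9 libraries each. Krt8 and Krt18 had r = 0.65 over 18 libraries, 0.93 at 10 weeks and 0.70 at 30 weeks, and Krt8 and Krt7 had 0.79, 0.21 and 0.94. The points share libraries 17 and 18 and the intermediate libraries named above, so these values are descriptions. The genes most like Krt5 among 11405 genes were Aldh3a1 (0.929), Pkp1 (0.889) and Olfml2a (0.879), and those most like Krt15 were Aldh3a1 (0.910), Krt5 (0.877) and Pkp1 (0.844). Pkp1, plakophilin 1, is a desmosome protein of stratified epithelium. Trp63 was most like Fat2 (0.897), Qsox1 (0.874) and Krt5 (0.854), and Krt7 like Ptpru (0.931), Sytl2 (0.930) and Ugdh (0.926). Krt8 was most like Tmprss4 (0.972), Sowahc (0.963) and Lsm4 (0.955), whereas Krt18 was like Rpl9 (0.944), Cadps2 (0.937) and Etf1 (0.935), so the partners shared none of these genes. Krt14 was nearest Adcy6 (0.836), Ccdc162 (0.822) and Hoxb9 (0.821), Krt17 nearest Ly6c1 (0.806), Lrg1 (0.791) and Sh3pxd2b (0.790), Krt19 nearest Myh9 (0.967), B3gnt3 (0.949) and Gcc2 (0.949), and Krt4 nearest Ppfibp2 (0.907), Anxa13 (0.896) and Adarb2 (0.894).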

How the data were processed

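Per the study's methods, reads were trimmed with Trim Galore 0.4.1 and cutadapt 1.18, aligned with STAR 2.7.3a (GRCm38.p6) and quantified with Salmon as a stranded library with bias correction, and DESeq2 1.26 made 1 table per line and age. The authors deposited normalized counts, a signal per gene divided by a size factor of that table. Every value was a whole multiple of a step per library, so whole counts were recovered (100.0% of values lay within 0.001 of a whole number). These counts are called reads here. WT-TRAMP libraries differ between their 2 tables (30.9% to 37.6% of genes with exactly equal reads after rounding). Krt8 of library 1, for example, was at 5205 in the KO-TRAMP table and 5130 in the A537T-TRAMP table. The counts are therefore not raw reads of a library, and tests stayed within a table. The authors' tables of their own comparisons (fold changes, p-values) were not used. Columns give a library number and no replicate; columns found in both tables of an age were taken as WT-TRAMP.

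Genes with a mean of at least 10 were tested two-sided on log2(normalized count + 1) with limma 3.58.1 (lmFit, eBayes with trend; R 4.3.3), Benjamini-Hochberg adjusted over all genes, threshold 0.05. This scale understates changes of low genes. Beside it stand exact permutation tests, edgeR 4.0.16 and DESeq2 1.42.0 on recovered reads, TMM scaling, a pseudocount of 10, no filter, scaling to epithelial genes and leaving out each library. The fits without libraries 12 and 18 or 12 and 15 were chosen after seeing the data. The limma fit was tried on simulated counts with a smaller spread than these data. Only the direction of the changes put in was required to be right, so this does not measure error rates in these data. The study describes its replicates as biological, the labels tie no library to a mouse, and p-values measure the spread between these libraries.

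The 10 genes and all lists were chosen with earlier results of these data known. Named were the 10 genes, Elac2, from each list the genes past the threshold (up to 3 per direction) or else the 2 with the smallest p, and the 3 genes with the highest Pearson r to each of the 10. Krt20, Chga, Gsdmc2, Upk1b, Krt6a, Bcl2 and Bcl11b, and Upk3a and Foxa2 in A537T-TRAMP, were chosen after their values were seen. Positions and lengths are from GENCODE vM21, an earlier release than the authors' vM24.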

Additional observations from a re-analysis of the deposited data

Results flagged for a closer look

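The log2 fold changes at 10 and 30 weeks had opposite signs for 6 of the 10 genes in KO-TRAMP and for 8 of the 10 in A537T-TRAMP. Listed here are the genes for which, in addition, every library of the line lay on one side of the WT-TRAMP mean at 10 weeks and on the other side at 30 weeks. Shares over all genes are not given for these counts or for this filter, so neither sets the 10 genes apart. In KO-TRAMP, Krt8 had a log2 fold change of -0.14 at 10 weeks and 0.94 at 30 weeks, Krt18 had -0.12 and 0.10, and Krt4 had 1.68 and -0.64. In A537T-TRAMP these were Krt17 (-0.35 and 0.99) and Krt8 (-0.34 and 0.32). The test of the difference itself passed for none of them (limma adjusted p 0.259 for Krt8, 0.607 for Krt18 and 0.313 for Krt4 in KO-TRAMP, and 0.721 for both genes in A537T-TRAMP). With DESeq2 the difference for Krt8 in KO-TRAMP passed (adjusted p 0.0275).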

How the results depend on the processing

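Of 860 alternative values for the 60 log2 fold changes of the 10 genes, 789 kept their direction and side of the threshold. A further 14 newly passed and 57 turned in sign, in 24 of the 60. None of the 10 passed in the limma fits of all libraries, so there was no call to lose. The study describes its mice as matched by age and litter. No paired analysis was possible because the columns carry only library numbers and the labels tie no library to a litter. In fits that leave an arm with 1 or 2 libraries the spread is pooled over groups. The causes were not tested.

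All genes past the threshold at 10 weeks numbered 2 in KO-TRAMP (edgeR 0, DESeq2 83, leaving out a library 1 to 9) and 1 in A537T-TRAMP (edgeR 0, DESeq2 148, epithelial scaling 0, leaving out a library 0 to 65). At 30 weeks they numbered 36 in KO-TRAMP (edgeR 15, DESeq2 805, epithelial scaling 2, without libraries 12 and 18 0, leaving out a library 0 to 3064) and 0 in A537T-TRAMP (DESeq2 166, leaving out a library 0 to 145). For the difference between ages they numbered 0 in KO-TRAMP (pseudocount of 10 1, no filter 1, DESeq2 389, leaving out a library 0 to 1944) and 0 in A537T-TRAMP (DESeq2 51, leaving out a library 0 to 20). Of the 10 genes, 4 passed with DESeq2 in KO-TRAMP at 30 weeks (0 to 5 leaving out a library) and 1 for its difference between ages (0 to 4).

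Epithelial scaling moved the median of all genes to 0.16 (10 weeks) and -0.19 (30 weeks) for KO-TRAMP, and to 0.24 and -0.18 for A537T-TRAMP, and the signs below are read against that shift. They turned for Krt5 (0.084), Krt15 (0.13), Krt8 (0.026), Krt18 (0.053) and Krt19 (0.11) in KO-TRAMP at 10 weeks, Krt18 (0.00046) in A537T-TRAMP at 10 weeks, Krt18 (-0.11) in KO-TRAMP at 30 weeks, and Trp63 (-0.16), Krt18 (-0.17), Krt19 (-0.14) and Krt4 (-0.076) in A537T-TRAMP at 30 weeks. They turned with edgeR and DESeq2 for Krt15 in KO-TRAMP at 10 weeks (0.10 in both) and, in A537T-TRAMP at 30 weeks, for Krt14 (0.016 and 0.021), Krt18 (-0.0048 and -0.0045) and Krt7 (0.018 and 0.019). Without libraries 12 and 15 they turned for Krt14 (0.061), Krt15 (0.17) and Krt7 (0.25) in A537T-TRAMP at 30 weeks.

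Leaving out a library gave, in KO-TRAMP at 10 weeks, Krt5 -0.50 to 0.23, Krt14 -0.83 to 0.012 and Krt15 -0.61 to 0.35; in A537T-TRAMP at 10 weeks, Krt14 -0.080 to 0.94 and Krt15 -0.18 to 0.96; in KO-TRAMP at 30 weeks, Krt17 -0.21 to 0.96, Krt18 -0.0089 to 0.18 and Krt19 -0.71 to 0.02. In A537T-TRAMP at 30 weeks it gave Krt5 -0.93 to 0.043, Krt14 -0.23 to 0.14, Krt15 -0.29 to 0.19, Trp63 -0.30 to 0.34, Krt18 -0.093 to 0.092, Krt19 -0.23 to 0.21, Krt4 -0.16 to 0.35 and Krt7 -0.43 to 0.20. For the difference between ages it gave Trp63 -0.17 to 1.06 and Krt19 -0.64 to 0.085 in KO-TRAMP and Krt14 -0.96 to 0.064 and Krt15 -1.02 to 0.12 in A537T-TRAMP. Depth limits Krt14 and Krt17 most, with as few as 11 and 17 reads in a library.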
